A study of Mus musculus with 36 samples.

Results

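H2A.Z nucleosomes around the liver binding sites of CLOCK:BMAL1 were compared between late day and late night in wild-type mice. The comparison used the 8 wild-type (WT) libraries taken at ZT10 and ZT22 (zeitgeber time, hours after lights on), 4 at each time, out of 36 samples in the series. Membership was set by the labels: genotype WT, series number 11, 12, 25 or 26, and time ZT10 or ZT22. All came from livers of adult C57BL/6 mice aged 3 to 6 months that had been held in a cycle of 12 h light and 12 h dark for at least 2 weeks. No treatment or allele set the groups apart. Livers were sampled every 4 h at 6 times, and the other 16 WT libraries are used below only to place the 8. Of the 6 libraries of series 5 from Bmal1-/- mice (BM), which lack BMAL1, those at ZT10 and ZT22 are used to the same end. BM series 8 was not analysed here.

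H2A.Z is a variant of histone H2A that chromatin remodelling complexes place in nucleosomes at promoters and enhancers, typically on both sides of the DNA that transcription factors occupy. CLOCK and BMAL1 pair to form the activator at the head of the circadian clock, and they bind E-box elements in the promoters and enhancers of Per, Cry, Nr1d1, Dbp and many metabolic genes of the liver. Binding of the pair in mouse liver is known to rise during the day and to fall at night, when the PER and CRY repressors accumulate. Micrococcal nuclease cuts the linker DNA between nucleosomes, so the recovered fragments mark where intact H2A.Z nucleosomes stood.

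The deposited values give, for each library, the signal averaged over peaks at every 10 bp of a 3 kb window centred on the CLK:BMAL1 peaks, in 4 sets of peaks. The set of all peaks holds 3216 peaks, the transcription start site (TSS) set 583, the gene body set 1623 and the set of intergenic peaks beyond 10 kb from a gene 717. The set of all peaks contains the others and is not independent of them. A profile averages its whole set, so no value belongs to a single gene or peak. A second peak centre lay inside the window for 15.5% of the listed peaks.

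The 8 libraries fall into 2 sets by their source names. Series 11 and 12 share 1 antibody lot number in the labels, as does BM series 5. In series 25 and 26 every library carries its own lot number, so in those series lot and time of day cannot be told apart. Those lot numbers run in unbroken order through the libraries, and no label says whether they stand for separate antibody lots. A shared series number is not shown to pair libraries, so differences within a series and counts of series below are descriptions only. Nothing in the labels says that the libraries came from separate animals, so each p-value measures only the spread between these libraries. Read depth was not given, and the precision that follows from it is unknown. Before the results, 2 libraries have to be named: series 26 at ZT22 was the lowest of the 24 WT libraries in window signal in each of the 4 peak sets, and series 11 at ZT10 came next but one, after series 12 at ZT22.

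At both times H2A.Z formed a shoulder on each side of the bound site with a dip between the shoulders. Over all peaks the mean ZT10 profile reached 32.5 at -210 bp and 32.3 at 180 bp, in the authors' signal units, and fell to 19.2 at -20 bp. At ZT22 the maxima were 23.6 at -220 bp and 24.0 at 180 bp, and the dip stood at 16.1 at -20 bp. At TSS peaks the maxima lay farther out and higher, with 52.9 at -230 bp and 53.1 at 200 bp at ZT10, against 38.8 and 39.4 at the same positions at ZT22. The gene body profile was the lowest, with a ZT10 maximum of 24.3 and a ZT22 maximum of 18.2. In all 4 peak sets and at both times the lowest point of the dip lay at -20 bp.

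**Figure D1:**
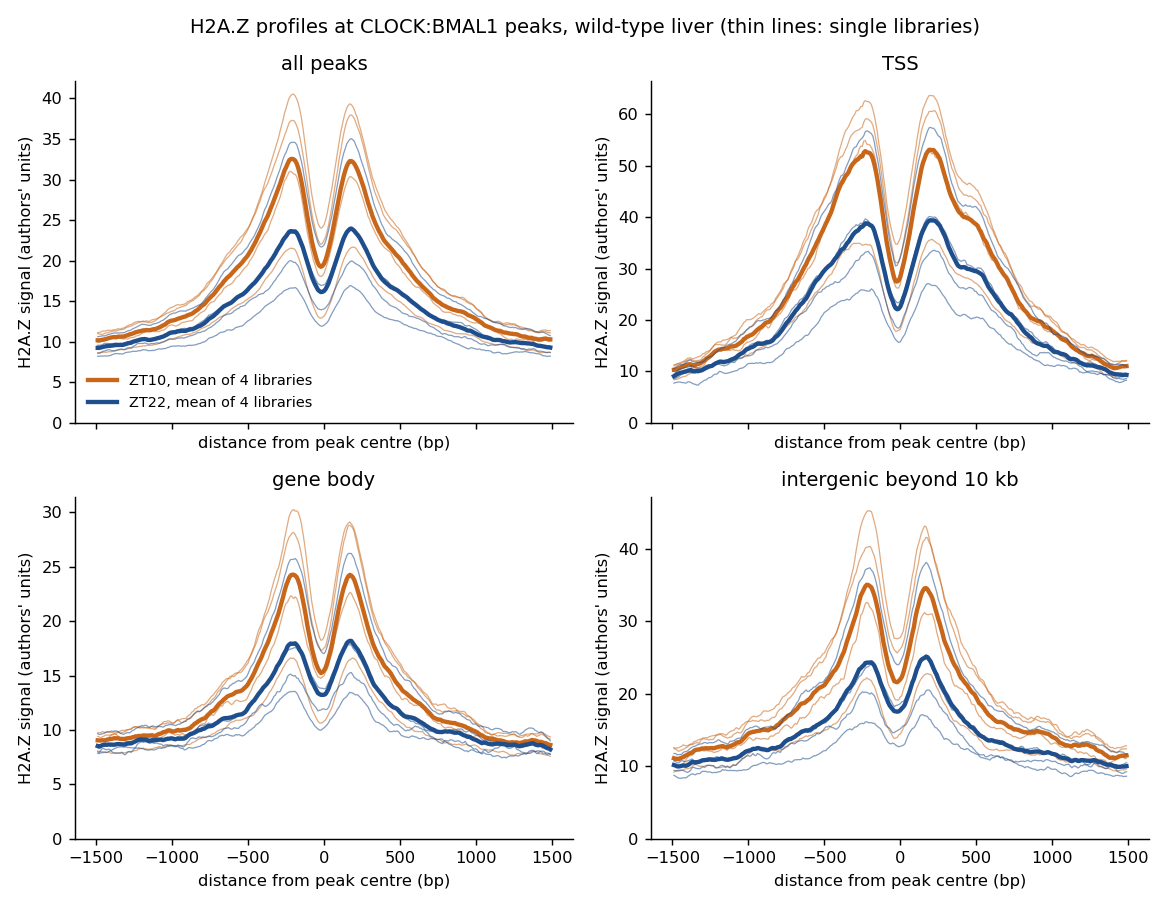
H2A.Z signal (authors' units) against distance from the peak centre (bp) in each peak set, for ZT10 and ZT22. Thick lines are means of 4 WT libraries and thin lines single libraries. The ZT10 mean lies above the ZT22 mean throughout, while the single libraries of both times interleave.

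The first question was whether the amount of H2A.Z differed between the times. Mean signal was higher at ZT10 in every peak set, but the libraries of both times overlapped. Window signal over all peaks, the mean over the positions of the window, was 13.2, 16.8, 20.6 and 19.97 in series 11, 12, 25 and 26 at ZT10. At ZT22 it was 14.5, 12.7, 18.9 and 11.3 in the same order. ZT10 was thus the higher in series 12, 25 and 26 and the lower in series 11. The means were 17.6 ± 3.42 (SD, n = 4) and 14.3 ± 3.30 (SD, n = 4). The log2 difference, ZT10 minus ZT22, was 0.30 (SE 0.22, 95% interval -0.52 to 0.87), with an exact permutation p of 0.229 (adjusted p = 0.359, two-sided) that misses the threshold of 0.05. That test has 70 assignments of 4 against 4 libraries, and its smallest possible p is 0.0286.

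The same ordering of libraries held in the separate classes of peak. TSS peaks carried 27.7 ± 5.59 (SD, n = 4) at ZT10 and 21.6 ± 5.93 (SD, n = 4) at ZT22, a log2 difference of 0.38 (SE 0.25, exact permutation p = 0.229). Intergenic peaks beyond 10 kb carried 18.7 ± 4.08 and 14.8 ± 3.74 (SD, n = 4 each), a log2 difference of 0.35 (SE 0.24, exact permutation p = 0.2). Gene body peaks carried 13.3 ± 2.28 and 11.4 ± 2.14 (SD, n = 4 each), with the smallest log2 difference, 0.23 (SE 0.18, exact permutation p = 0.257). In each of the 4 sets series 11 ran against the other series.

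The size of the difference rested on series 26. Its 2 libraries differed by 0.83 on the log2 scale over all peaks, against 0.40 in series 12, 0.13 in series 25 and -0.14 in series 11. With both libraries of series 26 left out the difference over all peaks was 0.13 (exact permutation p = 0.7), and with both of series 11 left out it was 0.45 (exact permutation p = 0.2). With 3 libraries against 3 the smallest possible exact p is 0.1. By source name, the difference was 0.13 in series 11 and 12 and 0.48 in series 25 and 26.

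In the means the difference was larger near the bound site than at the window's edges. The flank, averaged over the 25 outermost positions of either side (1250 to 1490 bp from the centre), was 10.5 ± 1.23 at ZT10 and 9.61 ± 1.18 at ZT22 over all peaks (SD, n = 4 each), a log2 difference of 0.13 (exact permutation p = 0.286). The shoulders, 150 to 230 bp from the centre on both sides, were 31.8 ± 8.09 and 23.4 ± 7.73 (SD, n = 4 each), a log2 difference of 0.46 (exact permutation p = 0.2). The flank of gene body peaks differed least, by 0.07 (exact permutation p = 0.543), and the shoulders of intergenic peaks most, by 0.51 (exact permutation p = 0.2). All 16 mean levels (window, flank, shoulder and centre in 4 sets) were higher at ZT10, and the 16 exact permutation p ran from 0.171 to 0.543 (adjusted p from 0.359 to 0.543). These 16 values share the same 8 libraries, so their common direction is not 16 separate observations.

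**Figure D2:**
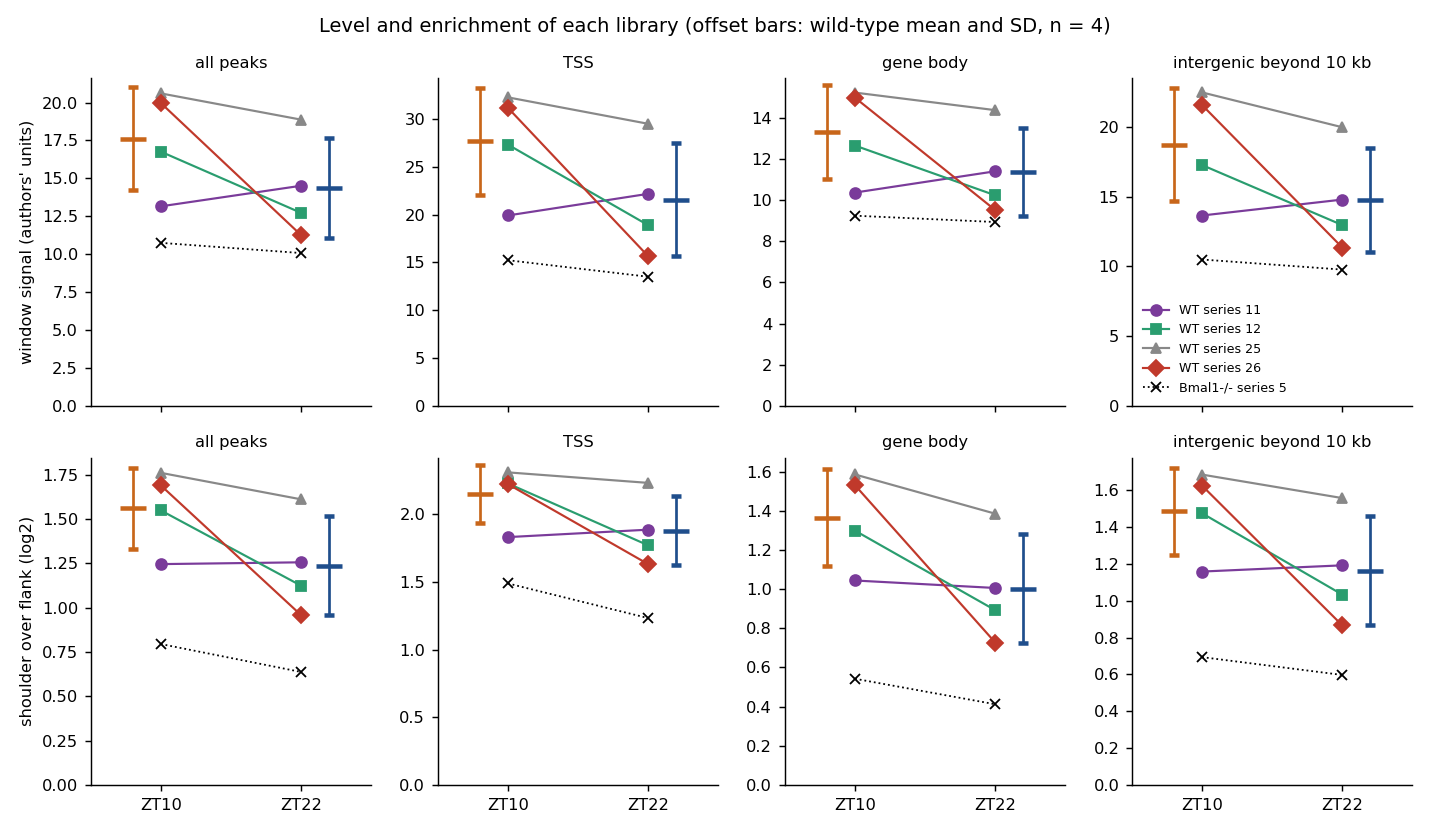
Window signal (authors' units, top) and log2 shoulder over flank (bottom) of each library at ZT10 and ZT22 in each peak set. Lines join libraries with the same series number, offset bars give the WT mean and SD (n = 4), and crosses are the single Bmal1-/- libraries. Series 26 has the steepest line and series 11 runs against the rest in window signal.

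Dividing each profile by its own flank removes any factor that scales a whole library. Enrichment, the log2 of shoulder over flank, was 1.25, 1.55, 1.76 and 1.69 at ZT10 over all peaks in series 11, 12, 25 and 26. At ZT22 it was 1.26, 1.12, 1.61 and 0.96. Series 11 had nearly equal enrichment at the 2 times, and the other series were higher at ZT10. The difference was 0.32 (SE 0.18, 95% interval -0.37 to 0.80, exact permutation p = 0.143, adjusted p = 0.3). So a difference in favour of ZT10 remained in the means on this scale, still within the spread of the libraries.

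Gene body peaks had the largest mean difference in enrichment of the 4 sets. ZT10 gave 1.04, 1.30, 1.58 and 1.53 in series 11, 12, 25 and 26, and ZT22 gave 1.01, 0.89, 1.38 and 0.73. ZT10 was the higher in 4 of 4 series, by 0.36 on average (SE 0.19), though in series 11 the times were nearly equal. The groups overlapped and the exact permutation p was 0.114 (adjusted p = 0.3). Intergenic peaks differed by 0.32 (SE 0.19, exact permutation p = 0.143) and TSS peaks by 0.27 (SE 0.17, exact permutation p = 0.2). All 12 flank-divided means were higher at ZT10 (exact permutation p from 0.114 to 0.4, adjusted p from 0.3 to 0.4).

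Among the 8 libraries those with more signal in the flank also had more enrichment. Over all peaks the correlation of log2 flank with enrichment across the 8 libraries was r = 0.97 (Spearman's rho = 0.98, exact permutation p = 9.92e-05 and 0.000397, adjusted over 4 peak sets 0.000198 and 0.000794). It was 0.95 without the 2 libraries farthest from the median flank, series 26 at ZT22 and series 25 at ZT10. Among all 24 WT libraries r was 0.74 (rho 0.79, permutation p = 5e-05 and 1e-05, the latter the smallest that 100000 permutations can give). Within the first set of libraries r was 0.67 (n = 12, permutation p = 0.0188, adjusted p = 0.0377) and within the second 0.67 (n = 12, permutation p = 0.0532, adjusted p = 0.0710). In the other peak sets r among the 8 libraries ran from 0.90 to 0.98. There rho was 0.76 at gene body (exact permutation p = 0.0368), 0.86 at TSS (exact permutation p = 0.0107) and 1 at intergenic peaks. Among the 24, r was 0.79 at TSS peaks, 0.82 at intergenic peaks and 0.45 at gene body peaks. At gene body peaks rho over the 24 was 0.72 (permutation p = 7e-05). There r was 0.85 without the 2 farthest libraries, series 26 at ZT14 and series 11 at ZT10. Within the first set r was 0.67 at gene body, 0.47 at TSS (permutation p = 0.128) and 0.58 at intergenic peaks. Within the second it was 0.17 at gene body (permutation p = 0.535), 0.93 at TSS and 0.89 at intergenic peaks. The gene body value became 0.56 without series 26 at ZT14 and ZT22. Level and enrichment differed between libraries of the same time of day too, as between series 11 and series 25 at ZT10, and their part in the difference between times was not tested.

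**Figure D3:**
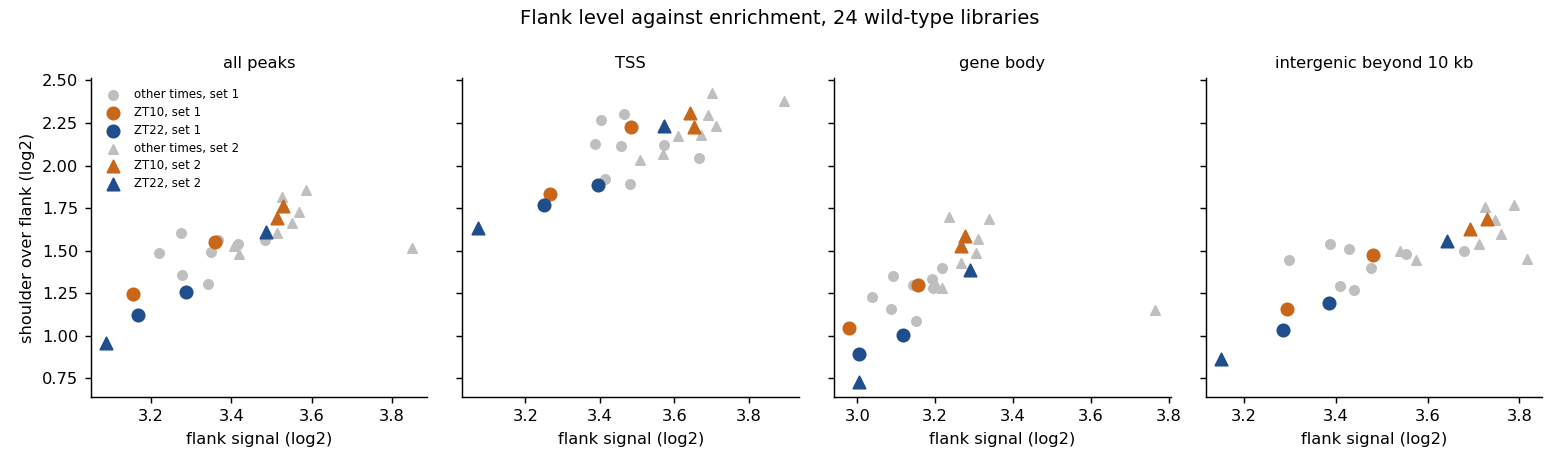
Enrichment (log2 shoulder over flank) against log2 flank signal in each peak set, 1 point per WT library. The 8 libraries at ZT10 and ZT22 are coloured and the other 16 grey, with circles for series 11 and 12 and triangles for series 25 and 26. Over all peaks the 8 coloured points rise together (r = 0.97).

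The 6 times of sampling place the 8 libraries. ZT22 had the lowest mean window signal of the 6 times in each of the 4 peak sets, and ZT10 had rank 3 from the lowest. Within series 12, 25 and 26, ZT22 was the lowest of the 6 times in all 4 sets. In series 11 the lowest was ZT10. These ranks are a description and were not tested.

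The contrast between classes of peak inside a library asks whether the difference between times was larger at some sites. TSS over gene body window signal was 1.05 ± 0.074 on the log2 scale at ZT10 and 0.90 ± 0.14 at ZT22 (SD, n = 4 each), a difference of 0.15 (SE 0.078, exact permutation p = 0.0857, adjusted p = 0.171). Intergenic over gene body signal was 0.48 ± 0.075 and 0.36 ± 0.091 (SD, n = 4 each). ZT10 was the higher in 4 of 4 series, by 0.12 (SE 0.059, exact permutation p = 0.114, adjusted p = 0.171). TSS over intergenic signal differed by 0.03 (SE 0.042, 95% interval -0.06 to 0.20, exact permutation p = 0.571). None of the 3 contrasts passed the test, so a difference between classes of peak was not detected.

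The second question was whether the shape of the profile differed. The dip between the shoulders was deeper at ZT10 in the means. Centre fill is the height of the centre (within 30 bp) over the flank divided by the height of the shoulder over the flank, with 0 for a dip that reaches the flank level and 1 for no dip. Over all peaks it was 0.364, 0.431, 0.484 and 0.448 at ZT10 in series 11, 12, 25 and 26, and 0.551, 0.488, 0.483 and 0.455 at ZT22. Series 11 and 12 had the lower values at ZT10, while in series 25 and 26 the 2 times were nearly equal. The difference was -0.0628 (SE 0.0323, 95% interval -0.187 to 0.0291, exact permutation p = 0.0857, adjusted p = 0.686). It was -0.122 in series 11 and 12 and -0.00307 in series 25 and 26, and it was -0.0213 with both libraries of series 11 left out (exact permutation p = 0.3).

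Of the 4 deposited sets, intergenic peaks beyond 10 kb had the largest difference in centre fill. ZT10 gave 0.400, 0.433, 0.508 and 0.4997, and ZT22 gave 0.616, 0.537, 0.503 and 0.546. The lowest ZT22 value, series 25, lay below the highest ZT10 value of the same series, so the groups overlapped. The difference was -0.0903 (SE 0.0354, exact permutation p = 0.0571, adjusted p = 0.686). At gene body peaks it was -0.0772 (SE 0.0495, exact permutation p = 0.2), and at TSS peaks -0.0294 (SE 0.0284, exact permutation p = 0.343).

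The ratio of centre to shoulder without subtraction of the flank was the alternative form of this measure, and on it the times parted. Over all peaks ZT10 gave 0.632, 0.625, 0.636 and 0.619 in series 11, 12, 25 and 26, with an SD of 0.00755. ZT22 gave 0.739, 0.723, 0.652 and 0.735. Every ZT10 library lay below every ZT22 library. Over all peaks the 4 ZT10 libraries were nearly equal although their window signals ran from 13.2 to 20.6. In the other sets the SD at ZT10 was larger, 0.0264 at TSS, 0.0235 at gene body and 0.0138 at intergenic peaks. The difference over all peaks was -0.0843 (SE 0.0207, 95% interval -0.120 to -0.0161), with ZT10 the lower in 4 of 4 series. Exact permutation gave p = 0.0286, its smallest possible value, and 0.0571 when adjusted over the 4 peak sets, so it fails the correction. That adjustment does not count the 20 tests of shape, although the ratio is an alternative form of 1 of those measures.

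Intergenic peaks parted in the same way, with 0.668, 0.637, 0.661 and 0.662 at ZT10 and 0.784, 0.763, 0.672 and 0.795 at ZT22. The difference was -0.0964 (SE 0.0289, exact permutation p = 0.0286, adjusted p = 0.0571, lower in 4 of 4 series). Gene body peaks differed by -0.100 (SE 0.0304, exact permutation p = 0.0571, lower in 4 of 4 series) and TSS peaks by -0.0478 (SE 0.0164, exact permutation p = 0.0571, lower in 3 of 4 series), and in these sets the groups overlapped. Series 25 showed the smallest difference in each set, -0.0161 over all peaks, and in TSS peaks it went the other way by 0.00985.

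Because the flank is not removed, this ratio moves toward 1 as enrichment falls, and enrichment was lower at ZT22 in series 12, 25 and 26. In series 11 enrichment over all peaks was 1.25 and 1.26 at the 2 times, and there the ratio differed by -0.107. In series 26 enrichment fell from 1.69 to 0.96 and the ratio differed by -0.117, while centre fill was 0.448 and 0.455. The part of enrichment in the difference of this ratio was not tested. Among all 6 times the ratio over all peaks was 0.639 ± 0.0262 at ZT2, 0.611 ± 0.00655 at ZT6, 0.628 ± 0.00755 at ZT10, 0.695 ± 0.00913 at ZT14, 0.713 ± 0.0412 at ZT18 and 0.712 ± 0.0407 at ZT22 (SD, n = 4 each). The means of the 3 times in the light phase were thus below those of the 3 in the dark phase, with ZT10 in the lower group and ZT22 in the upper.

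**Figure D4:**
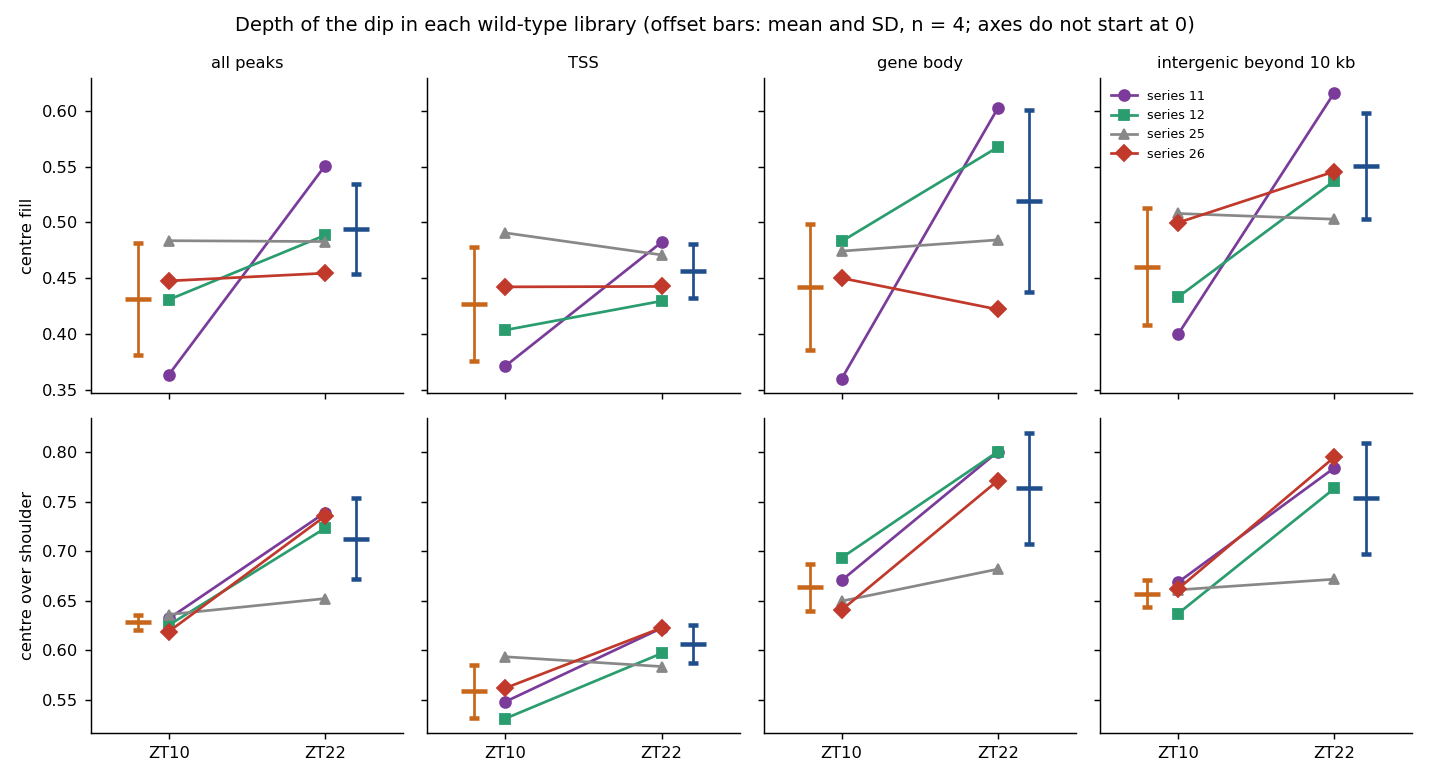
Centre fill (top) and centre over shoulder (bottom), both ratios without unit, of each WT library at ZT10 and ZT22 in each peak set. Lines join libraries of the same series, offset bars give mean and SD (n = 4), and the axes do not start at 0. The times part without overlap only in centre over shoulder for all peaks and for intergenic peaks, where series 25 has the smallest rise.

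For the other features of shape the difference between times lay within the spread of the libraries. The maxima of the shoulders were 390 bp ± 16.3 apart at ZT10 and 385 bp ± 19.1 at ZT22 over all peaks (SD, n = 4 each), a difference of 5 bp (95% interval -30 to 50, exact permutation p = 0.857). At TSS peaks, where the shoulders stand widest, the spacing was 445 bp ± 31.1 and 410 bp ± 27.1 (SD, n = 4 each), a difference of 35 bp (95% interval -10 to 120, exact permutation p = 0.2). The breadth of the profile midway between flank and shoulder was 474 bp ± 22.6 and 488 bp ± 20.6 over all peaks (SD, n = 4 each), narrower at ZT10 by a mean difference of -13.9 bp (95% interval -54.9 to 46.1, exact permutation p = 0.371). The outer slope, the height of the signal from 330 to 450 bp over the flank relative to that of the shoulder, differed by -0.00544 (95% interval -0.0394 to 0.0524, exact permutation p = 0.657). The log2 ratio of right to left shoulder differed by -0.02 (95% interval -0.07 to 0.02, exact permutation p = 0.457). The 20 tests of shape gave exact permutation p from 0.0571 to 1 (adjusted p from 0.686 to 1).

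Position by position, the ZT10 mean was the higher at all 1196 positions of the 4 sets. Neighbouring positions share fragments and the sets share peaks, so these are not separate observations. No position passed the limma test of log2 signal at an adjusted p under 0.05, 0% of 1196 (smallest adjusted p by limma 0.350), and 52 had an unadjusted p under 0.05, all higher at ZT10. Nor did the values of the times part without overlap at any position (0%). In series 11 alone ZT10 was the higher at 0 positions over all peaks, and in series 12 at all of them. Without series 11 at ZT10 limma called 375 of the 1196 positions, and without series 25 at ZT22 it called 507, all higher at ZT10. Leaving out any other single library it called 0. After division by the flank it called 0 whichever single library was left out.

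The largest differences stood at the shoulders. Over all peaks the largest was 0.48 on the log2 scale at -200 bp (limma SE 0.23), and at gene body peaks 0.44 at -210 bp (SE 0.22). Intergenic peaks had 0.55 at -220 bp (SE 0.24) and TSS peaks 0.51 at -370 bp (SE 0.22), outside the shoulder maximum. The smallest, at the window's edges, were 0.10 over all peaks at 1380 bp and 0.03 at gene body peaks at 1250 bp.

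After division by the flank limma again called no position (0% of 1196, smallest adjusted p by limma 0.240). An unadjusted p under 0.05 was found at 8 positions over all peaks, 36 at TSS, 26 at gene body and 51 at intergenic peaks, all higher at ZT10. At 30 positions (2.51%) the times did not overlap, 16 of them at intergenic peaks. With each profile rescaled so that the flank is 0 and the shoulder 1, a scale added after seeing the data, limma called none (0%, smallest adjusted p by limma 0.981). Of the 41 positions with an unadjusted p under 0.05, 35 were lower at ZT10. At 11 positions (0.92%) the times did not overlap, 9 of them at intergenic peaks, a share that is again not above the probability of 0.0286. In the rescaled profiles the lowest difference was -0.0758 at -30 bp over all peaks and -0.104 at -30 bp at intergenic peaks, inside the dip.

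**Figure D5:**
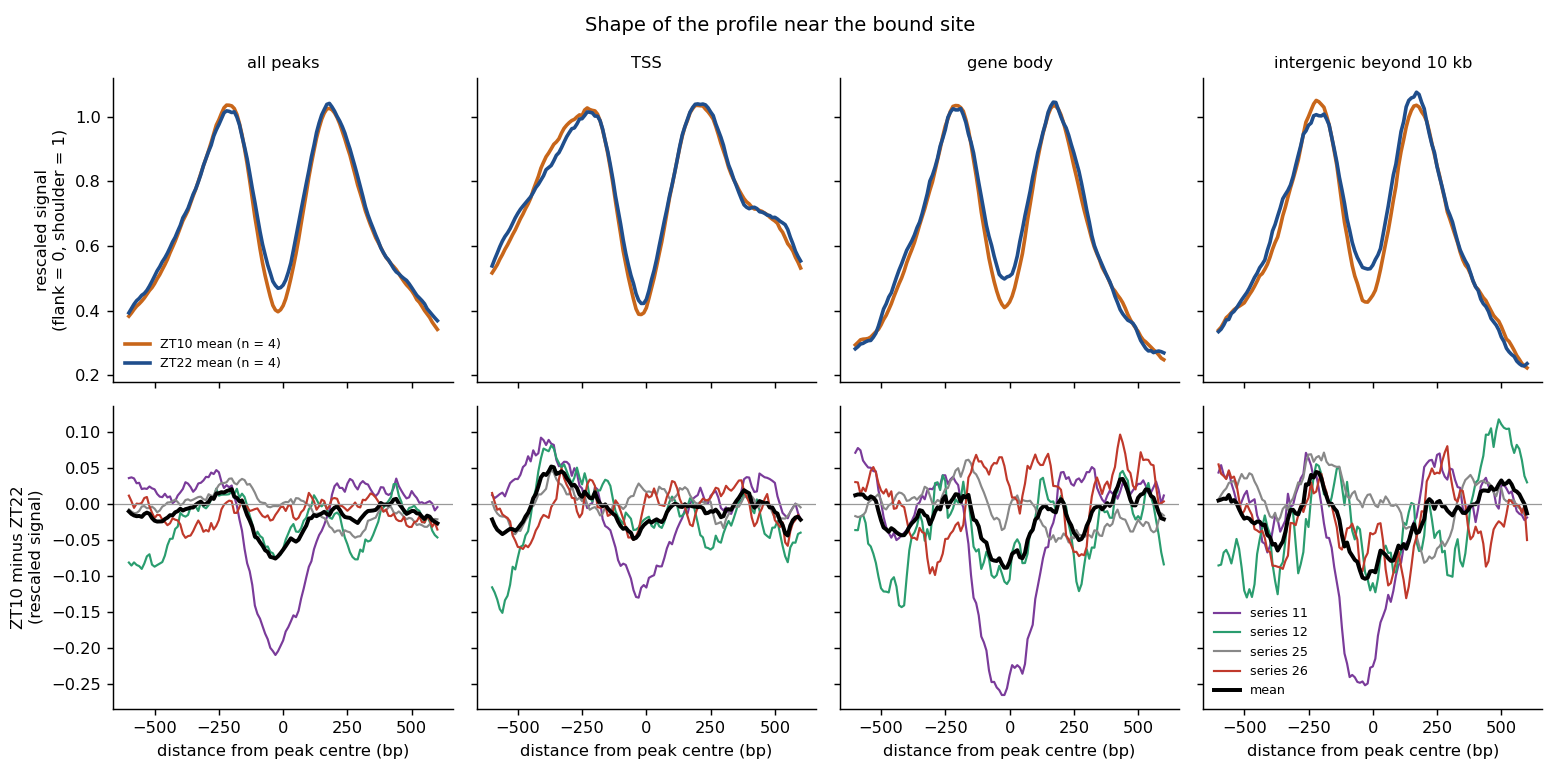
Profiles rescaled so that flank is 0 and shoulder 1 (top, means of 4 WT libraries per time) and the difference ZT10 minus ZT22 in each series (bottom), against distance from the peak centre (bp). The mean difference is lowest near the centre, -0.0758 at -30 bp over all peaks, and series 11 gives the largest part of it.

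In Bmal1-/- liver, with 1 library per time and so no replicate, the same comparison gave small differences in level. Window signal over all peaks was 10.7 at ZT10 and 10.1 at ZT22, a log2 difference of 0.09, and both values lay below all 8 WT libraries. Enrichment was 0.80 and 0.64. Centre fill was 0.505 and 0.663, and centre over shoulder was 0.790 and 0.880, so the dip was the deeper at ZT10 in BM too. In WT series 11 and 12, which share the source-name set of BM series 5, the WT differences were 0.13 for window signal and -0.122 for centre fill, against 0.09 and -0.158 in BM. The value of 0.13 averages series that ran opposite ways. Window signal at ZT10 and ZT22 was 13.2 and 14.5 in series 11, and 16.8 and 12.7 in series 12. Moving the BM label among the libraries of each time gave exact permutation p from 0.16 to 1 in 16 tests (adjusted p from 0.981 to 1). That test rests on 1 BM library per time and exchanges it with WT libraries of both sets, so it does not show whether the genotypes differ or are alike.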

How the data were processed

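Nuclei from formaldehyde-fixed liver were digested with micrococcal nuclease and H2A.Z mononucleosomes were precipitated and sequenced, per the labels' protocols. CASAVA 1.7, Bowtie and the build mm9 are named in the submitters' processing notes. The deposited table holds signal (coverage) that the authors averaged over peak sets. Its normalization, and the caller of the deposited peak list, are not given in the labels or headers used here.

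The 10 bp step follows from the 3 kb window and the number of columns. The signal times the number of peaks and 1 factor per library (0.623 to 1.92, fitted at TSS peaks) was whole within 0.15 at 100% of intergenic positions, which were not fitted. What the factor stands for is not given, so depth is unknown.

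Measures were tested by exact two-sided permutation of the time label, with intervals from the same permutations and Benjamini-Hochberg adjustment within families of 16 level, 12 flank-divided, 20 shape and 3 contrast tests, and over 4 sets for centre over shoulder. Positions were tested with limma 3.58.1 (R 4.3.3) on log2 signal, raw or divided by the flank, with no pseudocount and no filter. The rescaled profiles were tested without log2. Other steps used Python 3.11.15, numpy 2.4.6 and scipy 1.17.1. The position test was also run on simulated data in which every position was drawn independently. Neighbouring positions here share fragments, so that run does not show how the test behaves on these profiles. The libraries, measures and tests were chosen with earlier results of these data known. Positions named are the shoulder maxima, the dip and the largest differences.

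Alternatives were a replicate block, other flank, shoulder and centre widths, linear signal, the median, each set alone, and each library left out. Peaks were not assigned to genes, since the gene table used here is of another assembly, and no sequence is printed.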

Additional observations from a re-analysis of the deposited data

Results flagged for a closer look

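In 7 groups of 4 libraries, 1 library stood far from the other 3 by its gap relative to the range of the group. Chance gives about 1 in 20 groups, which over all groups checked comes to 6.3. The spacing of the shoulders at ZT22 was 370 bp in series 26 at TSS peaks (others 420 to 430). In series 12 at ZT22 it was 400 bp at gene body peaks (others 360) and 430 bp at intergenic peaks beyond 10 kb (others 360 to 370). The outer slope over all peaks at ZT22 was 0.612 in series 25 (others 0.645 to 0.647). The log2 ratio of right to left shoulder at ZT10 was -0.0219 in series 12 at TSS peaks (others 0.05 to 0.06) and -0.0769 in series 25 at gene body peaks (others 0.01 to 0.02). The log2 ratio of TSS to intergenic window signal at ZT10 was 0.66 in series 12 (others 0.52 to 0.55).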

How the results depend on the processing

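Among the main tests of level, shape and contrast none passed its threshold, so the alternatives bear mainly on direction. Without subtraction of the flank, centre fill differed by -0.0843 over all peaks and -0.0964 at intergenic peaks (exact permutation p = 0.0286 each unadjusted, adjusted p = 0.0571, which fails the correction). The replicate block, a permutation within series, kept these at -0.0843 and -0.0964 with exact p = 0.125, the smallest it allows; it changed no other call. Pairing by series number was not shown. Of 4 same-numbered pairs, 1 had a correlation of deviations over 0.1 (-0.72 to 0.89), and 1 library of 4 correlated best with its own number. Neighbouring positions share fragments, so these correlations cannot decide whether libraries of the same number belong together. With both libraries of series 11 left out the ratio differed by -0.0768 and -0.0900, and with both of series 26 by -0.0736 and -0.0842 (exact p = 0.1 each, the smallest 3 against 3 allow). Leaving out 1 library it ran from -0.104 to -0.0755 over all peaks and -0.124 to -0.0826 at intergenic peaks (exact permutation p up to 0.0571, without each ZT10 library), -0.127 to -0.0877 at gene bodies (exact permutation p = 0.0286 without ZT22 series 25) and -0.0594 to -0.0386 at TSS (exact permutation p = 0.0286 without ZT10 series 25). Directions turned for shoulder spacing over all peaks (-3.33 bp without both series 26 libraries), gene body centre signal (-0.00193 in the first set alone) and TSS over intergenic signal (-0.0523 from the shoulders). The cause was not tested. Leaving out 1 library, spacing over all peaks ran from -3.33 to 11.7 bp, the outer slope over all peaks from -0.0163 to 0.00266, right over left from -0.0155 to 0.0124 at TSS and -0.0240 to 0.00942 at gene bodies, TSS over intergenic signal from -0.00590 to 0.0417, gene body centre fill from -0.110 to -0.0494 (exact permutation p = 0.0286 without ZT22 series 26), and called raw positions by limma from 0 to 507. With no change of call or direction, window signal over all peaks ran from 0.19 (without ZT22 series 26) to 0.44 (without ZT22 series 25), its flank from 0.08 to 0.21 (without ZT22 series 26 and ZT10 series 11), TSS over gene body signal from 0.09 to 0.19 (without ZT22 series 26 and 25), and centre fill from -0.0801 to -0.0402 over all peaks and -0.0506 to -0.0108 at TSS (without ZT10 series 25 and 11). Flank widths of 15 and 40 positions, linear signal and the median changed no direction or call among the results they were run on. Depth is unknown, so no counting interval was given.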

Other observations

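Intergenic peaks within 10 kb of a gene have no profile of their own, and theirs (9.14% of the list) was solved from the other sets, an addition made after seeing the data. Window signal was 18.8 ± 3.96 at ZT10 and 15.4 ± 3.46 at ZT22 (SD, n = 4 each), a log2 difference of 0.29 (SE 0.22, exact permutation p = 0.229), close to that of the sets above. Their flank was the highest of the classes, 13.95 ± 2.18 and 12.3 ± 1.78 (SD, n = 4 each). Their centre fill was the lowest of the classes, 0.315 ± 0.0830 at ZT10 and 0.413 ± 0.0863 at ZT22 (SD, n = 4 each), a difference of -0.0972 (SE 0.0599, exact permutation p = 0.2). By source name it was -0.116 in series 11 and 12 and -0.0786 in series 25 and 26. Series 11 and 12 ran opposite ways, with 0.226 at ZT10 and 0.481 at ZT22 in series 11, and 0.315 and 0.292 in series 12. These values carry the counting error of all 4 sets they were solved from.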
